A study of Mus musculus with 6 samples.

Results

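The mitochondrial genome of the mouse was represented by 37 of the 55414 genes in the deposited count table, taken as every row whose symbol starts with mt-. They are 13 protein-coding genes, 2 ribosomal RNA genes and 22 transfer RNA genes. RNA-seq was done on 6 libraries of the mouse cell line AY-mICC, grown in DMEM with fetal bovine serum and given no treatment. The 3 shCopa libraries came from cells with a knockdown of Copa, which encodes a coat subunit of the vesicles that return cargo from the Golgi to the endoplasmic reticulum, and the 3 shCon libraries came from control cells. The labels leave out the hairpin sequences, the promoter that drove them and whether a line was a clone. They do not call the replicates separate cultures either, so the p-values reflect how far these libraries differ from each other, which may be technical.

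Mitochondrial DNA is transcribed from both strands into long precursor RNAs. Transfer RNAs lie between most of the other genes, and their removal by RNase P and the tRNA 3′ processing enzyme releases the ribosomal RNAs and the messenger RNAs. The messenger RNAs encode core subunits of complexes I, III and IV and of ATP synthase. The ribosomal RNAs form part of the mitochondrial ribosome, and all protein components of mitochondrial gene expression are encoded in the nucleus. Because the genes of a strand share precursors, their steady levels differ through processing and decay as well as through transcription.

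The depth was 19634938 to 22824646 estimated counts in shCopa libraries and 22282624 to 24546204 in shCon libraries. Values below are CPM, the counts scaled to a common library size with TMM factors, and a call is a Benjamini-Hochberg adjusted p under 0.05 by edgeR's quasi-likelihood test over 14807 genes. Copa had 186, 182 and 187 CPM in shCopa libraries, against 419.7, 517 and 527 CPM in shCon libraries, a log2 fold change of -1.40 ± 0.11 (SE, adjusted p = 0.000149, edgeR). Bile duct and epithelial markers summed to 8585 to 9068 CPM in shCopa and 11467 to 14587 CPM in shCon libraries. Of 11 tested, 5 were lower (Krt7, Krt8, Krt18, Cdh1 and Spp1) and 1 was higher. The calls for these and the next markers stand beside 18.4% of all genes called lower and 18.2% called higher. Krt19 was at 522 to 556 CPM in shCopa and 534 to 622 CPM in shCon libraries, while Epcam stayed at or below 0.790 CPM in every library. The summed markers of immune cells were 9.25 to 10.0 CPM in shCopa and 1.23 to 1.81 CPM in shCon libraries (2 of 6 listed genes tested, both higher). Most of this was Lyz2 (means of 8.21 and 1.46 CPM). Those of hepatocytes were 30.5 to 32.5 and 10.8 to 15.0 CPM, mostly Alb (22.7 and 9.90 CPM), with 2 of 3 tested genes higher. Those of endothelial cells were 1.55 to 3.59 and 0.0822 to 0.232 CPM, and the 1 tested gene, Kdr, was higher. Those of fibroblasts were 168 to 182 and 184 to 223 CPM, nearly all from Dcn (170.2 and 202 CPM). Every other fibroblast marker was at most 3.14 CPM, and 1 of 3 tested, Pdgfrb, was lower. In every library 1 hepatocyte and 1 endothelial marker were at 0, and the part of these markers in the results was not tested. The first shCon library stood apart, with a correlation of log2 CPM across genes of 0.9719 and 0.9734 with the other shCon libraries, which correlated at 0.9898 with each other, so results are also given without it where that matters.

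Part of the mitochondrial sequence is also present in the nuclear genome, and 6 of the 13 mRNA genes had counts at a near-identical copy. A search of the mitochondrial transcripts against all GENCODE M21 transcripts (GRCm38) found 7 unprocessed pseudogenes on chromosome 1 that were at least 99% identical over at least 100 bases. A further 10 loci were 90% to 99% identical, had at most 5.56 counts in a library and are left out of the sums below. The 7 near-identical loci lie on the minus strand within chr1:24611535-24616197, and they follow each other in the order of the mitochondrial genes, from mt-Co1 to mt-Nd4. In 5 of the 6 gaps between neighbours the number of bases was the same on chromosome 1 as on the mitochondrial genome, for example 233 bases between the copies of mt-Co2 and mt-Atp6, the stretch in which mt-Atp8 begins. The copies of mt-Co2, mt-Atp6, mt-Co3 and mt-Nd4l, and that of the first 876 bases of mt-Nd4, had no mismatch over the aligned bases, and those of mt-Co1 and mt-Nd3 had 1 mismatch each. The following windows of 30 bases are shown because they hold these differences, in capitals, and because the mt-Co2 pair is an example of a pair with none. Positions are counted from 1 at the 5′ end of the mitochondrial gene, the mitochondrial base is written first, and the substitutions are A1066T in mt-Co1 and T3C in mt-Nd3.
mt-Co1: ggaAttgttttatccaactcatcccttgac
Gm29216: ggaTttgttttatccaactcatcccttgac
mt-Nd3: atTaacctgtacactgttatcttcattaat
Gm28438: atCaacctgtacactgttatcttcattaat
mt-Co2: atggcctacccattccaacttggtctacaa
Gm28661: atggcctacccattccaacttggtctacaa

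The deposited counts appear to be divided between the mitochondrial gene and its nuclear locus. For the 6 pairs with counts at the locus, the value of the mitochondrial gene was not a whole number in 35 of 36 cases. In the first shCopa library mt-Atp6 had 4056.36 and Gm10925 49420.64 counts, which add to 53477. For mt-Co2 and mt-Co1 some pairs did not add to a whole number. In the first shCon library mt-Co2 had 2282.32 and Gm28661 114774.12 counts, and the less similar locus Gm13341 had 5.56. Whether reads were also divided with such loci was not tested. For mt-Co2 the nuclear locus Gm28661 held 96.4% to 98.4% of the pair's counts in shCopa libraries and 98.1% to 99.2% in shCon libraries. The corresponding share was 92.4% to 98.0% and 94.2% to 95.5% for mt-Atp6 with Gm10925, and 93.8% to 95.5% and 90.4% to 98.7% for mt-Co3 with Gm28437. For mt-Nd3 with Gm28438 it was 89.1% to 91.6% and 82.1% to 94.4%, and for mt-Nd4l with Gm10222 it was 91.2% to 94.0% and 94.6% to 94.7%. Most counts of these 5 genes were therefore listed under a pseudogene. At mt-Co1, whose copy Gm29216 covers only the last 483 bases, the locus held 4.43% to 4.81% in shCopa and 1.8% to 6.2% in shCon libraries, and at mt-Nd4 the locus Gm28439 had 0 counts in every library.

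The division differed between libraries, and the deposited values of mt-Co2, mt-Atp6, mt-Co3, mt-Nd3 and mt-Nd4l scattered more within a group than the sums did, though by little for mt-Nd4l, at 1.54-fold against 1.49-fold among shCon libraries. As deposited, mt-Co3 had 203, 175 and 256 CPM in shCopa libraries, against 114, 52.8 and 403 CPM in shCon libraries, a 7.63-fold range among shCon libraries alone. With Gm28437 added it had 3921, 3897 and 4121 CPM in shCopa and 4786, 4102 and 4186 CPM in shCon libraries, and the range among shCon libraries was 1.17-fold. For mt-Atp6 the range among shCopa libraries was 4.12-fold as deposited and 1.12-fold with Gm10925 added. The single rows of mt-Co2, mt-Atp6, mt-Co3, mt-Nd3 and mt-Nd4l thus appear to carry the division of reads as well as the RNA level. Both forms are given below. The summed form was chosen after the data were seen, and whether the RNA came from the mitochondrial or the nuclear copy cannot be told apart from these counts.

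**Figure D1:**
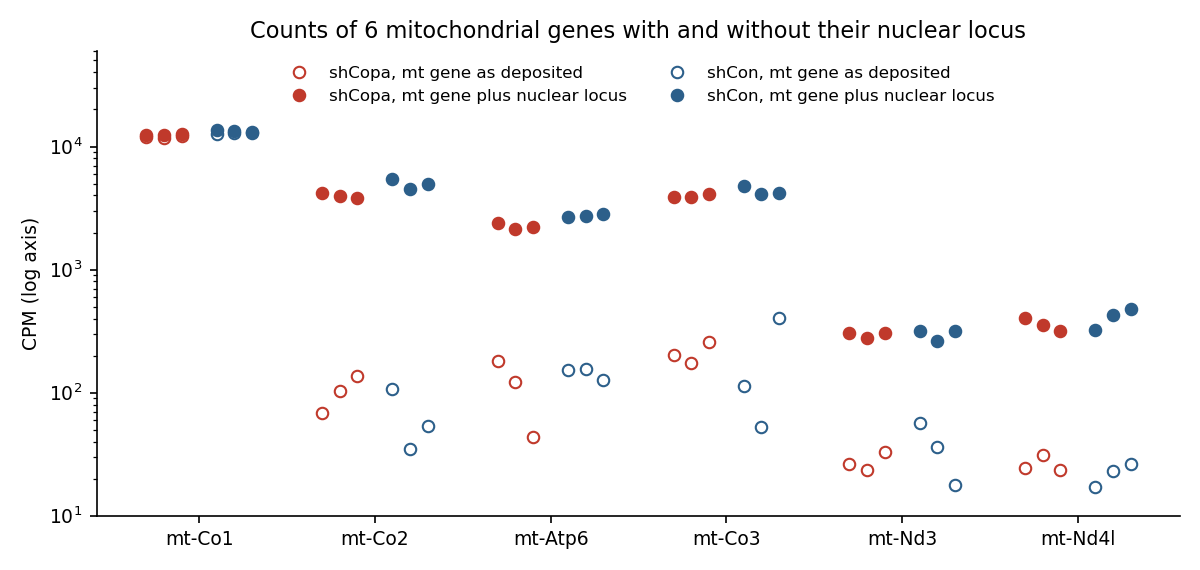
CPM (log axis) of the 6 mitochondrial genes with counts at a near-identical nuclear locus, for the 3 shCopa libraries (red, left) and the 3 shCon libraries (blue, right); open circles are the mitochondrial gene as deposited and filled circles the sum with its nuclear locus. The open circles of mt-Co3 spread over 7.63-fold among shCon libraries, the filled ones over 1.17-fold.

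The ribosomal RNAs were the members that rose. mt-Rnr1, the 12S RNA of the small ribosomal subunit, had 435, 423 and 518 CPM in shCopa libraries, against 114, 103 and 95.4 CPM in shCon libraries. mt-Rnr2, the 16S RNA of the large subunit, had 495, 454 and 503 CPM in shCopa libraries, against 181, 194 and 228 CPM in shCon libraries. Every shCopa library lay above every shCon library for both genes. mt-Rnr1 rose 4.40-fold (log2 fold change 2.14 ± 0.12, SE, adjusted p = 5.39e-05, edgeR), with means of 458 ± 51.7 and 104 ± 9.45 CPM (SD, n = 3 each). mt-Rnr2 rose 2.41-fold (1.27 ± 0.11, adjusted p = 0.000235, edgeR), with means of 484 ± 26.2 and 201 ± 24.5 CPM. Of all genes tested, 18.2% were called higher in shCopa, and 2.74% had a log2 fold change at least as high as mt-Rnr1 and 6.19% one at least as high as mt-Rnr2. Without the first shCon library the log2 fold changes were 2.20 and 1.19, and both calls held in every alternative that was run.

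The 2 ribosomal RNAs did not rise to the same degree. They are cut from the same stretch of precursor, with mt-Tv, the valine transfer RNA, between them. The ratio of mt-Rnr1 to mt-Rnr2 in counts per base was 1.46, 1.54 and 1.71 in shCopa libraries, against 1.04, 0.883 and 0.692 in shCon libraries. The groups did not overlap, and mt-Rnr1 was the more abundant per base in all shCopa libraries and in 1 of 3 shCon libraries. Together the rRNAs took 0.0957%, 0.0889% and 0.103% of all counts in shCopa libraries and 0.0285%, 0.0293% and 0.0321% in shCon libraries. The Wilson 95% interval of the lowest shCopa share was 0.0876% to 0.0901% and that of the highest shCon share 0.0314% to 0.0328%, and such intervals cover counting error only.

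**Figure D2:**
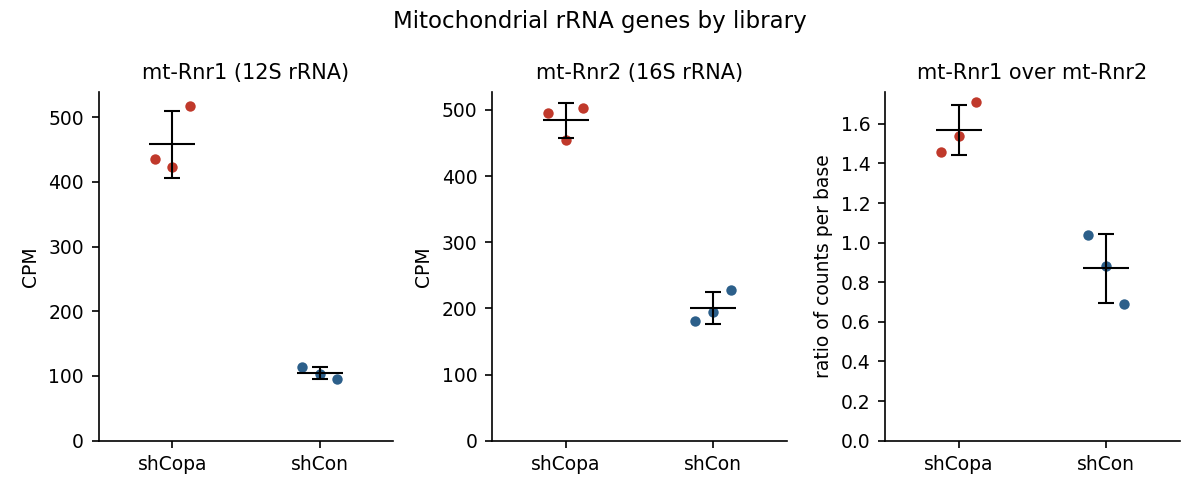
CPM of mt-Rnr1 and mt-Rnr2 and the ratio of their counts per base, one point per library, with the mean and SD of the 3 libraries of a group (black). All shCopa points lie above all shCon points in each panel, at 423 to 518 against 95.4 to 114 CPM for mt-Rnr1.

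The labels name a standard mRNA kit without its selection step. As a measure of nuclear RNA without a poly(A) tail, 8 genes of this kind were found in the table, out of 13 listed. Of these, 4 were at 0 in every library. The 8 genes summed to 0.0443, 0.303 and 0.202 CPM in shCopa libraries and to 0.836, 0.172 and 0 CPM in shCon libraries. None of these genes passed the filter on low counts, and the groups overlapped. Set against the mitochondrial mRNAs of the same library, nuclear loci included, the rRNAs amounted to 2.58, 2.59 and 2.98 counts per 100 mRNA counts in shCopa libraries, against 0.728, 0.735 and 0.782 in shCon libraries. The groups did not overlap in this ratio. Whether the libraries differed in how much RNA without a poly(A) tail they kept was not tested. The 8 nuclear genes had too few counts for such a comparison.

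The transfer RNAs were nearly absent from these libraries. Of the 22 genes, 15 had 0 counts in all libraries, 7 had any count, and the highest value was 5 counts in 1 library. All transfer RNAs together had 3, 3 and 2 counts in shCopa libraries and 14, 1 and 1 counts in shCon libraries. None could be tested, and a count of 0 allows up to 0.131 to 0.153 CPM in shCopa and 0.122 to 0.135 CPM in shCon libraries (3 counts per library).

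Among the 13 mRNAs, 2 fell, none rose and 11 did not pass the test in the deposited counts, with a median log2 fold change of -0.18 beside -0.01 for all genes tested. The share called lower was 18.4% over all genes, so 2 of 13 is near that background. Over the 37 genes, 4 of the 15 tested were called in either direction, beside 36.5% of all genes. With the nuclear loci added, all 13 log2 fold changes were below 0, from -0.59 to -0.01 with a median of -0.20, 4 genes were called lower and none higher. The share called lower in that fit was 18.4% of 14801 genes. With library totals in place of scaling factors, which move the median of all genes from -0.01 to 0.04, 11 of 13 were below 0. The groups did not overlap for 3 of 13 mRNAs as deposited and for 5 of 13 with the loci added, beside 54% of all genes as deposited.

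mt-Cytb, the only mitochondrial subunit of complex III, fell the most among the mRNAs. It had 3473, 3172 and 2959 CPM in shCopa libraries, against 4643, 4722 and 5093 CPM in shCon libraries. The groups were well apart, with the highest shCopa library below the lowest shCon library. The level in shCopa was 66.4% of that in shCon (log2 fold change -0.59 ± 0.10, SE, adjusted p = 0.00307, edgeR), and the call held in every alternative, at -0.62 without the first shCon library. Its counts per count of mt-Co1, which has a nuclear copy of its last part only, were 0.280, 0.258 and 0.233 in shCopa libraries and 0.342, 0.356 and 0.388 in shCon libraries, again without overlap.

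Of the 7 subunits of complex I, the NADH dehydrogenase, mt-Nd4 was the one that fell. It had 2338, 1932 and 1955 CPM in shCopa libraries, against 2539, 3009.6 and 3169 CPM in shCon libraries (log2 fold change -0.49 ± 0.12, SE, adjusted p = 0.019, edgeR). The groups did not overlap, but the first shCopa and the first shCon library were close. The call was lost, with log2 fold changes of -0.47 to -0.43, when the second or the third shCopa library or the second or the third shCon library was left out, and it was -0.58 without the first shCon library.

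The other complex I mRNAs did not pass the test. mt-Nd5 had 2177, 1827 and 1793 CPM in shCopa libraries, against 2013, 2701 and 2528 CPM in shCon libraries (-0.32 ± 0.14, adjusted p = 0.109, edgeR). mt-Nd2 had 1462, 1280.2 and 1322 CPM in shCopa libraries, against 1372, 1589 and 1649.9 CPM in shCon libraries (-0.18 ± 0.11, adjusted p = 0.218, edgeR). In both genes the first shCon library lay within the shCopa range and the other two above it, and without the first both passed, at -0.44 (adjusted p = 0.00109, edgeR) and -0.26 (adjusted p = 0.0009, edgeR). mt-Nd1, the first mRNA after the rRNAs, had 2355, 2206 and 2189 CPM in shCopa libraries, against 2210.2, 2308 and 2494 CPM in shCon libraries (-0.05 ± 0.09, adjusted p = 0.665, edgeR), and the groups overlapped. mt-Nd3 with its locus had 305, 280.4 and 305 CPM in shCopa and 315, 263 and 319 CPM in shCon libraries, a log2 fold change of -0.01 ± 0.10. mt-Nd4l with its locus had 402, 352 and 315 CPM in shCopa and 322, 429.7 and 478 CPM in shCon libraries, a log2 fold change of -0.20 ± 0.16. As deposited these last 2 genes had -0.41 ± 0.37 and 0.25 ± 0.18, and neither form passed the test, except that mt-Nd3 as deposited passed without the third shCon library, at -0.75 (adjusted p = 0.0442, edgeR).

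mt-Nd6 is the single mRNA of the other strand. It had 344, 288 and 287 CPM in shCopa libraries, against 446, 426 and 322 CPM in shCon libraries (-0.38 ± 0.15, adjusted p = 0.0808, edgeR). The third shCon library lay within the shCopa range, and without it the gene passed at -0.52. No source used here states whether counting was by strand, so reads from mt-Nd6 and from transcripts of the opposite strand cannot be told apart. Its counts per 100 counts of the other mitochondrial mRNAs were 0.963, 0.857 and 0.846 in shCopa and 1.11, 1.07 and 0.783 in shCon libraries, which overlap.

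The 3 mRNAs of complex IV, cytochrome c oxidase, were the most abundant per length. mt-Co1, the catalytic subunit, had 11868, 11715 and 12076 CPM in shCopa libraries, against 12728, 12885 and 12872 CPM in shCon libraries. The groups did not overlap, yet the difference was small and did not pass (-0.11 ± 0.08, adjusted p = 0.316, edgeR), except without the first shCon library, at -0.12 (adjusted p = 0.0487, edgeR). With Gm29216 added it was -0.09 ± 0.08 (adjusted p = 0.388, edgeR). mt-Co2 had 67.9, 104 and 137 CPM in shCopa libraries as deposited, against 106, 34.8 and 53.2 CPM in shCon libraries, a log2 fold change of 0.67 ± 0.41 that did not pass. With Gm28661 added it had 4190.1, 3925 and 3823 CPM in shCopa libraries, against 5438, 4489 and 4914 CPM in shCon libraries, and the direction turned to -0.31 ± 0.10 (adjusted p = 0.0452, edgeR). mt-Co3 did not pass in either form, at -0.13 ± 0.10 with Gm28437 (adjusted p = 0.317, edgeR) and 0.15 ± 0.64 as deposited. As deposited it was called higher without the third shCon library, at 1.33 (adjusted p = 0.0256, edgeR), which made 3 mitochondrial genes higher in that fit.

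The ATP synthase mRNAs mt-Atp8 and mt-Atp6 lie on 1 transcript and share 43 bases, shown here because reads within them belong to both genes, with the start codon of mt-Atp6 in capitals and the stop codon of mt-Atp8 at the 3′ end.
mt-Atp8 and mt-Atp6 overlap: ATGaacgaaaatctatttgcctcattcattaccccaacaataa
mt-Atp6 with Gm10925 had 2368, 2119.9 and 2208 CPM in shCopa libraries, against 2672, 2711 and 2821 CPM in shCon libraries (-0.29 ± 0.09, adjusted p = 0.0327, edgeR), and all shCopa libraries were lower. mt-Atp8 had 347, 281 and 282 CPM in shCopa libraries, against 279.9, 310.1 and 343 CPM in shCon libraries, a log2 fold change of -0.03 ± 0.12, and the groups overlapped. The ratio of mt-Atp8 to mt-Atp6 in counts per base was 0.489, 0.443 and 0.427 in shCopa and 0.350, 0.382 and 0.405 in shCon libraries, without overlap, although the RNA is shared. No annotated locus covers the nuclear stretch between Gm28661 and Gm10925, and its part in the counts of mt-Atp8 was not tested. The adjusted p of mt-Co2 and mt-Atp6 went above 0.05 when any shCopa library or the third shCon library was left out, and for mt-Atp6 also without the second shCon library, with log2 fold changes from -0.35 to -0.26. Without the first shCon library both passed, mt-Co2 at -0.25 (adjusted p = 0.00172, edgeR) and mt-Atp6 at -0.31 (adjusted p = 0.000155, edgeR).

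**Figure D3:**
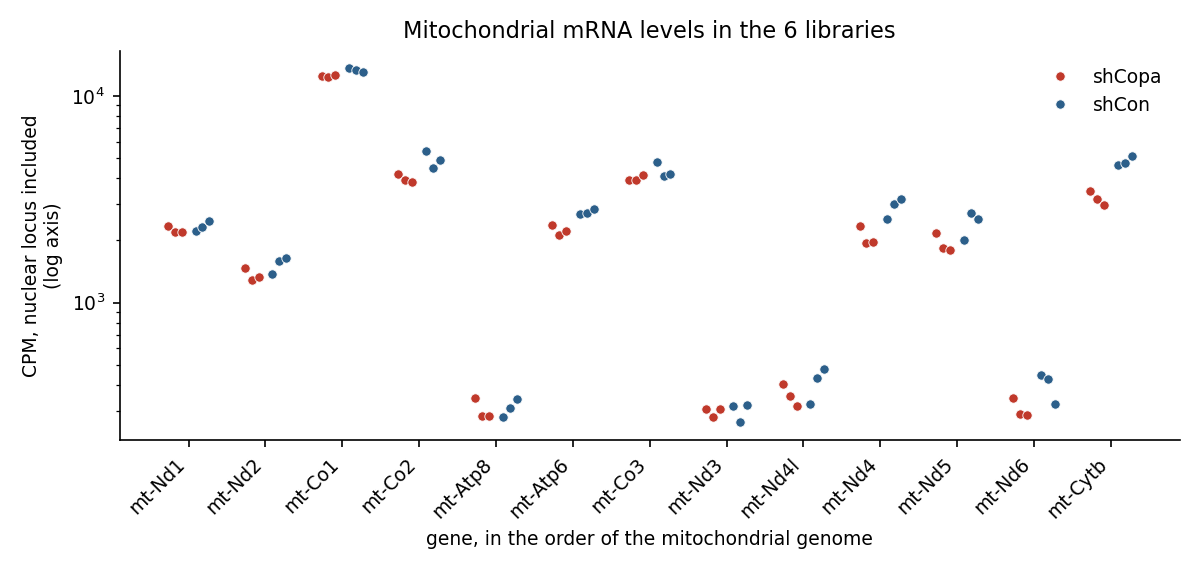
CPM (log axis) of the 13 mitochondrial mRNAs in genome order, nuclear loci included, for the 3 shCopa libraries (red, left) and the 3 shCon libraries (blue, right) of each gene. The groups are apart for mt-Co1, mt-Co2, mt-Atp6, mt-Nd4 and mt-Cytb and overlap for the other 8 genes.

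The order of the members by level hardly differed between the groups. Per kilobase of gene and with nuclear loci, mt-Co1 was highest, at 8071 ± 125 CPM in shCopa and 8620.3 ± 152 CPM in shCon libraries (SD, n = 3 each), followed by mt-Co2 and mt-Co3. mt-Nd6 was the lowest mRNA, at 590.4 ± 63.2 and 767 ± 128 CPM per kilobase, so the mRNAs spanned 13.7-fold in shCopa and 11.2-fold in shCon. The rRNAs, which are far more abundant than the mRNAs in cells, were below every mRNA, at 480.1 ± 54.1 and 109 ± 9.91 CPM per kilobase for mt-Rnr1 and 306 ± 16.5 and 127 ± 15.5 for mt-Rnr2. Only neighbours changed places, mt-Atp6 with mt-Cytb at ranks 4 and 5 and mt-Rnr1 with mt-Rnr2 at ranks 14 and 15. At mt-Atp8 and mt-Nd4 in shCopa libraries (1488 ± 184 and 1506 ± 165 CPM per kilobase) and at mt-Atp6 and mt-Cytb in shCon libraries (4016 ± 114 and 4213 ± 209.5), neighbours in the order were within their spread.

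The makeup of the mitochondrial mRNA pool, nuclear loci included, differed between the groups at a few genes. mt-Cytb made up 9.62%, 9.37% and 8.64% of it in shCopa libraries, against 11.4%, 11.7% and 12.3% in shCon libraries. mt-Co1 made up 34.4%, 36.3% and 37.0% in shCopa libraries, against 33.4%, 32.9% and 31.6% in shCon libraries. Of the 13 shares, those of mt-Nd1, mt-Co1 and mt-Nd3 lay higher in all shCopa libraries and those of mt-Cytb and mt-Atp6 lower. The other 8 overlapped. In CPM as deposited, the groups did not overlap for 54% of all genes. The shares are parts of a whole, so a lower share of mt-Cytb by itself raises the others. With the loci added, the log2 fold changes of mt-Nd1, mt-Co1 and mt-Nd3 were -0.05, -0.09 and -0.01. None of these passed the test, so their higher shares do not show a rise in level. The mt-Atp6 share differed little, at 6.56%, 6.26% and 6.45% in shCopa and 6.58%, 6.72% and 6.81% in shCon libraries.

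Along the genome, the log2 fold changes of the 12 mRNAs of the plus strand, nuclear loci included, went down with the gene's place after the rRNAs. Across these 12 genes Spearman's rho with the order was -0.59 and Pearson's r -0.61, and without mt-Cytb, the last of them, -0.46 and -0.45 over 11 genes. With gene length rho was -0.49, with GC content -0.28 and with mean level -0.42, though for level Pearson's r was -0.03. Without mt-Cytb these rho values were -0.44, -0.18 and -0.41. These are descriptions across genes that share libraries and precursors, and the genes differ in order, length and base composition together.

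**Figure D4:**
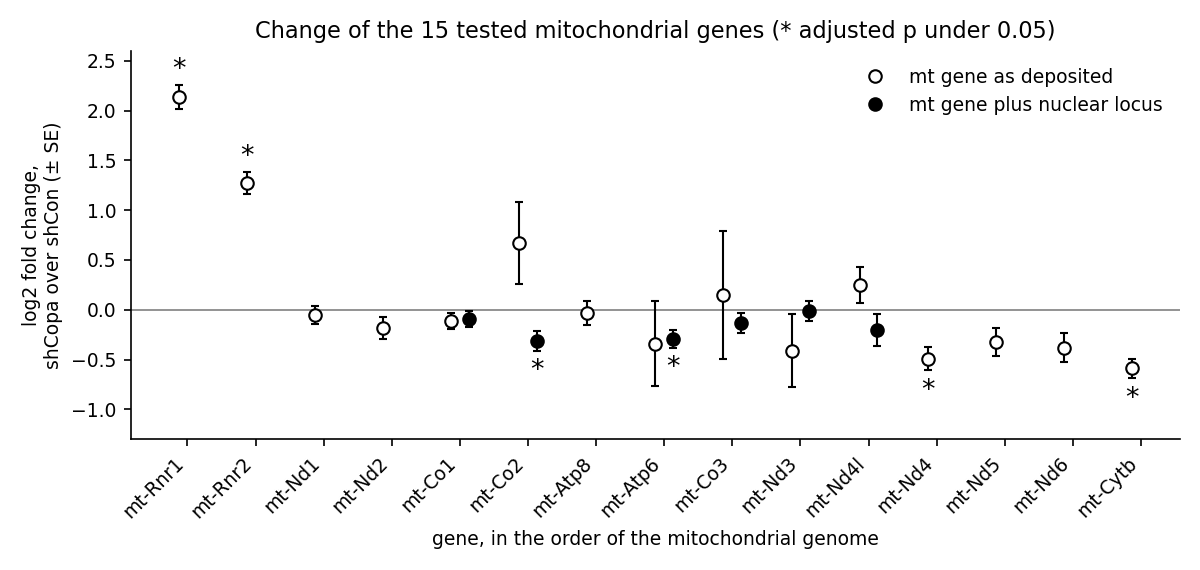
Log2 fold change of shCopa over shCon (± SE) for the 15 tested mitochondrial genes in genome order; open circles are deposited counts, filled circles counts with the nuclear locus added, and asterisks mark an adjusted p under 0.05 (edgeR). The 2 rRNA genes are at 2.14 and 1.27, and the mRNAs with their loci lie between -0.59 and -0.01.

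As a share of the library, mitochondrial mRNA took 2.56%, 2.35% and 2.35% of all counts in shCopa libraries, against 2.58%, 2.79% and 2.88% in shCon libraries, with means of 2.42 ± 0.122% and 2.75 ± 0.157% (SD, n = 3 each). The first library of each group nearly met. Including the nuclear loci, the shares were 3.72%, 3.43% and 3.45% in shCopa and 3.92%, 3.98% and 4.11% in shCon libraries, so the loci held 1.09% to 1.16% and 1.19% to 1.35% of all counts. All 37 genes as deposited took 2.66%, 2.44% and 2.45% in shCopa and 2.61%, 2.82% and 2.92% in shCon libraries, and these groups overlapped. In bulk RNA a lower share of transcripts per mitochondrion, fewer mitochondrial genomes and a different mix of cells cannot be told apart.

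Among the nuclear genes that read and copy the mitochondrial genome, the counts of calls are to be read against the 18.2% of all genes called higher and 18.4% called lower. Of 10 genes of mitochondrial transcription, 1 rose and 9 did not pass (median log2 fold change 0.07). The one that rose was Tefm, the elongation factor, at 13.5, 14.9 and 14.0 CPM in shCopa and 9.85, 6.27 and 7.93 CPM in shCon libraries (0.82 ± 0.18, adjusted p = 0.00976, edgeR). The RNA polymerase Polrmt was at 0.03 ± 0.10 and the initiation factor Tfb2m at 0.11 ± 0.09. Tfam, which packages the genome and starts transcription, was at 0.28 ± 0.10 (adjusted p = 0.0525, edgeR) and higher in every shCopa library. Of 18 genes of replication and nucleotide supply, 4 rose and 5 fell (median 0.04). Samhd1, a dNTP hydrolase, was at 1.08 ± 0.10 and Top3a, a topoisomerase, at 0.71 ± 0.13, whereas Tk2, the mitochondrial thymidine kinase, was at -0.80 ± 0.17. The polymerase Polg fell (-0.33 ± 0.08, adjusted p = 0.0163, edgeR), and the helicase Twnk did not pass (0.24 ± 0.09, adjusted p = 0.083, edgeR).

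Of 37 genes of mitochondrial RNA processing, modification and decay, 15 rose, 3 fell and 19 did not pass (median 0.33), where 18.2% of all genes were called higher and 18.4% lower. Trmt10c, a subunit of mitochondrial RNase P, had 34.8, 33.0 and 32.0 CPM in shCopa libraries, against 17.0, 14.6 and 16.6 CPM in shCon libraries (1.05 ± 0.11, adjusted p = 0.00036, edgeR). Trnt1, which adds the CCA end to transfer RNAs, had 60.3, 62.5 and 68.9 CPM in shCopa libraries, against 28.4, 29.0 and 30.2 CPM in shCon libraries (1.13 ± 0.09, adjusted p = 0.00017, edgeR). Fastkd2, which binds the 16S rRNA, had 41.5, 35.2 and 41.1 CPM in shCopa libraries, against 22.9, 18.8 and 19.3 CPM in shCon libraries (0.95 ± 0.12, adjusted p = 0.00106, edgeR). In all of these every shCopa library was the higher. The other RNase P subunits differed in direction. 1110008L16Rik rose (0.51 ± 0.13, adjusted p = 0.0193, edgeR). Hsd17b10 did not pass (-0.40 ± 0.18, adjusted p = 0.126, edgeR), with every shCopa library the lower. Elac2, the tRNA 3′ processing enzyme, was at -0.05 ± 0.10 (adjusted p = 0.696, edgeR). Lrpprc, which stabilises mitochondrial mRNAs, rose less (0.29 ± 0.08, adjusted p = 0.0239, edgeR). Without the first shCon library 22 were higher and 4 lower, where 28.3% of all genes were called higher and 27% lower. When a shCopa library was left out, 11 to 13 were higher and none or 1 lower. In those fits 11.7% to 12.7% of all genes were called higher and 11.6% to 11.8% lower.

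Genes that charge transfer RNAs or serve translation were largely not past the test, and the counts for these and the next lists stand beside 18.2% of all genes called higher and 18.4% lower. Of 23 tRNA charging genes 1 rose and 3 fell (median 0.04), with Hars2, the mitochondrial histidyl-tRNA synthetase, at -1.10 ± 0.11, Cars2, the cysteinyl enzyme, at -0.44 ± 0.09 and Kars, the lysyl enzyme, at 0.34 ± 0.08. Of 14 translation factors 2 rose and 1 fell (median 0.05), with Mtrf1 at 0.70 ± 0.19, Gfm2 at 0.37 ± 0.11 and Guf1 at -0.49 ± 0.10. Among 10 regulators of mitochondrial biogenesis 3 rose and 1 fell (median -0.03). Myc was at 2.08 ± 0.11 and Pprc1 at 0.94 ± 0.12, and Ppargc1a, a coactivator of nuclear genes for mitochondrial proteins, fell (-0.64 ± 0.18, adjusted p = 0.0278, edgeR). Of 8 tested genes of the mitochondrial unfolded protein response 5 rose and 1 fell (median 0.46), with the chaperonin Hspd1 at 0.82 ± 0.08 and the secreted factor Gdf15 at 1.49 ± 0.18 against the transcription factor Atf5 at -2.05 ± 0.22. Of 16 genes of mitophagy and mitochondrial proteases 1 rose and 2 fell (median 0.12), with Fundc1 at 0.35 ± 0.11, Optn at -0.42 ± 0.09 and Bnip3 at -0.53 ± 0.14.

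The nuclear subunits of the complexes that the mitochondrial mRNAs help to build fell in part, by an amount that rested on the first shCon library, and the counts are to be read against the 18.4% of all genes called lower. Of 37 nuclear complex I genes 12 fell and none rose (median -0.71). For complexes III and IV 1 of 9 and 2 of 11 fell (medians -0.58 and -0.64), which is not above that share. For complex II, which has no mitochondrial gene, 3 of 4 fell (median -0.54), and for ATP synthase 5 of 15 (median -0.53). Complex I subunits summed to 1276, 1379.9 and 1363 CPM in shCopa libraries, against 2937, 1638 and 1637 CPM in shCon libraries, so the first shCon library was far above the other two. Without it the medians were -0.33 for complex I, -0.29 for complex II, -0.23 for complex III, -0.24 for complex IV and -0.23 for ATP synthase, with 22, 4, 6, 7 and 9 genes lower and 1 complex I gene higher, where 27% of all genes were called lower in that fit. The ratio of mitochondrial mRNA counts, loci included, to the summed nuclear subunit counts was 6.50, 5.71 and 5.85 in shCopa libraries, against 3.56, 5.89 and 6.07 in shCon libraries, and the groups overlapped. Examples by smallest adjusted p were Ndufab1 of complex I (-1.66 ± 0.27), Uqcrb of complex III (-0.86 ± 0.21), Cox6a1 of complex IV (-1.97 ± 0.40) and Atp5h of ATP synthase (-0.81 ± 0.16).

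**Figure D5:**
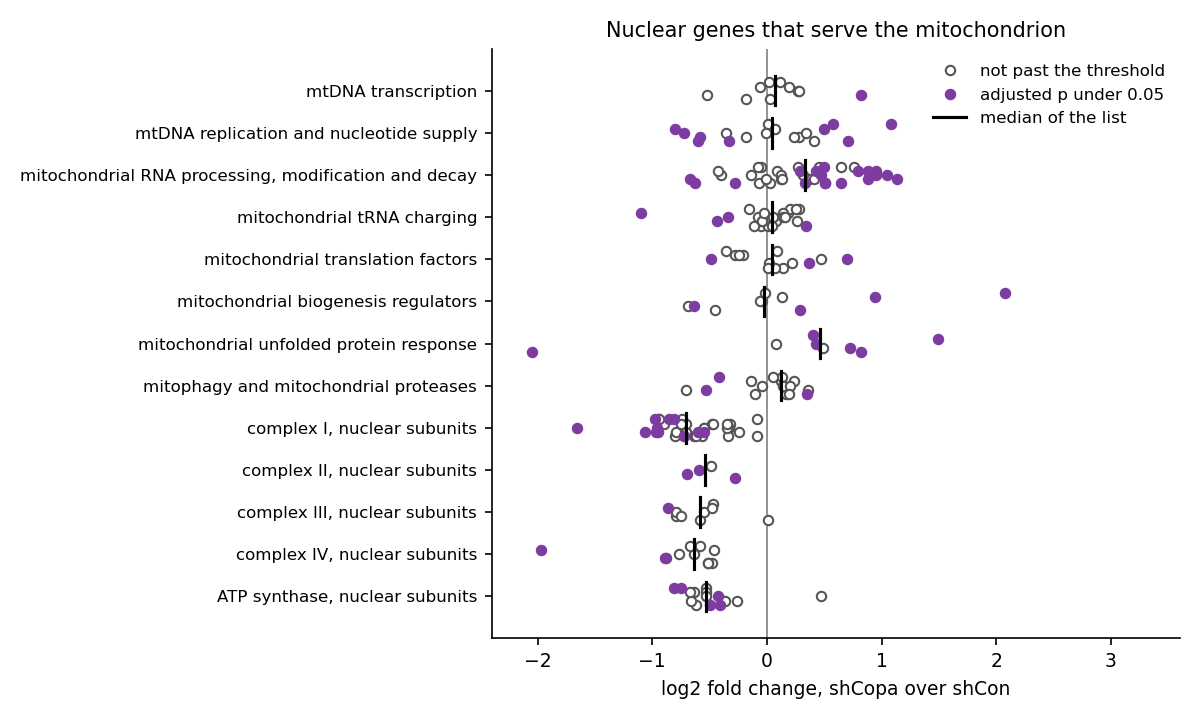
Log2 fold change of shCopa over shCon for each tested nuclear gene of 13 lists; filled points have an adjusted p under 0.05 (edgeR), open points do not, and black bars are list medians. The RNA processing list has its median at 0.33 and the respiratory complex lists have theirs between -0.71 and -0.53.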

How the data were processed

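RNA of 6 AY-mICC libraries (3 shCopa, 3 shCon, by sample title) was sequenced as read pairs after a standard mRNA kit, per the labels' protocols. What the authors deposited is 1 table with an estimated count for each Ensembl gene and library, of which 10.6% to 11.9% per library were not whole. Trimmomatic, HISAT2 2.0.5, HTSeq, featureCounts, DESeq2 and GRCm39 are named in the submitters' processing notes; which of them counted the reads, how it treated reads that map to several places, the gene annotation and the use of strand are not stated in the sources used here. Members and gene lists were chosen with earlier results of these data known. Counts were rounded and fitted across the whole table with edgeR 4.0.16 (R 4.3.3; filterByExpr, TMM, robust quasi-likelihood test, group only, Benjamini-Hochberg adjustment), after tests on simulated data. Shares have Wilson 95% intervals. Near-identical nuclear loci were found with blastn 2.17.0 among GENCODE M21 transcripts (GRCm38) and joined to the counts by gene ID; in an added fit each locus was summed with its mitochondrial gene. Nuclear genes named in a list are up to 3 with the smallest adjusted p, plus Tfam, Polrmt, Tfb2m, Polg, Twnk, Lrpprc and Ppargc1a. The other RNase P subunits and Elac2 were added to these. Alternatives were RLE, upper quartile and total scaling, mitochondrial genes left out of scaling, other filters, DESeq2 1.42.0, limma-voom 3.58.1, a replicate block and leaving out each library.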

Additional observations from a re-analysis of the deposited data

How the results depend on the processing

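The rise of mt-Rnr1 and mt-Rnr2 and the fall of mt-Cytb kept direction and call under every alternative run. The 2 mitochondrial genes called lower as deposited were 1 to 5 when a library was left out, 1 with a replicate block and 4 with the near-identical nuclear loci added. With the loci added, the 4 genes called lower were 2 with library totals only, 1 with a replicate block and 1 to 6 when a library was left out. The replicate numbers were not used as pairs, since same-numbered libraries deviated with correlations of -0.162, -0.0583 and -0.114; under the replicate block mt-Nd4 had an adjusted p of 0.0738 (edgeR), mt-Co2 with Gm28661 0.101 and mt-Atp6 with Gm10925 0.113, and the nuclear genes called changed, over the lists other than the respiratory complexes, were 29, not 48. Leaving out a library gave 27 to 72 of these and 3533 to 8439 of all genes, against 5411. The 5411 are 36.5% of all genes tested. Set against the numbers of genes tested in these lists, given above, 48 is near that share. The share of mitochondrial mRNA differed by -0.331 percentage points (shCopa minus shCon) as deposited and by -0.471 with the nuclear loci; the rRNA counts per 100 mRNA counts differed by 2.87 and by 1.97. The transfer RNA share differed by -1.14e-05 percentage points, and by -2.12e-05 to 8.18e-06 with a library left out, the highest without the first shCon library, on at most 14 counts a library.

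Some log2 fold changes that had not passed the test turned sign. With the loci added, mt-Co2 was at -0.31, mt-Co3 at -0.13 and mt-Nd4l at -0.20, where the sum replaces the single row. With a library left out, mt-Atp8 ranged from -0.14 to 0.03 (0.02 with library totals), mt-Atp6 from -0.81 to 0.05, mt-Co3 from -0.30 to 1.33, mt-Nd3 from -0.75 to 0.03, Polrmt from -0.05 to 0.10, Gm29216 from -0.09 to 0.89 and Gm28438 from -0.06 to 0.14. mt-Nd3 with Gm28438 was at 0.04 with library totals, 0.02 with upper quartile scaling, 0.00 with a filter of 1 CPM and -0.10 to 0.03 with a library left out. The cause of these turns was not tested. The transfer RNAs had too few counts for a test.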
